A study of Mus musculus with 4 samples.

Results

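The genes of the proteasome were compared between ribosome-bound RNA of midbrain dopamine (DA) neurons and RNA of the whole midbrain. Members were the genes whose symbol starts with Psm, a letter from a to g and a number, and 49 of the 18193 genes that the platform's annotation names by a single symbol met this rule. Of these, 47 encode subunits, assembly chaperones or regulators of the particle, and the other 2, Psmc3ip and Psme3ip1, encode proteins named for binding a member. Where several probe sets measure a gene, that with the highest mean over the arrays was used.

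The proteasome degrades proteins that carry ubiquitin chains. Its 20S core is a barrel in which outer rings of alpha subunits control entry and inner rings of beta subunits hold the proteolytic sites, and the 19S regulatory particle on its ends binds ubiquitin chains, cuts them off and unfolds the substrate with a ring of ATPases. Dedicated chaperones assemble both particles, other activators can replace the 19S particle, and immune cells exchange the catalytic beta subunits for inducible ones. In DA neurons the proteasome has been studied for its part in the turnover of misfolded proteins in Parkinson's disease.

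All RNA came from midbrains of adult mice (6 to 12 weeks) of both sexes of the Slc6a3 JD1640 TRAP line, with 5 mice pooled for each array and no other treatment group. In this line a bacterial artificial chromosome with the regulatory region of Slc6a3, the dopamine transporter gene, drives the ribosomal protein RPL10A fused to eGFP, so that Translating Ribosome Affinity Purification (TRAP) recovers mRNA on tagged ribosomes. The line was founded on FVB and bred to C57BL6/j, its carriers have 1 transgenic allele, and both fractions carry the transgene. TRAP RNA was hybridized on 2 arrays (replicates 2 and 4) and input RNA of the whole midbrain, which the labels also call unbound and which was collected in parallel, on 2 arrays (replicates 1 and 2). Of the label checks, Th, the enzyme that makes the dopamine precursor, was 5.72 higher in TRAP on the log2 scale, and Slc6a3 2.89 higher. Rpl10a was 1.06 higher (limma adjusted p = 0.00129). That is close to the median of the proteasome genes (1.13), so it does not check the label by itself. In bulk RNA of this kind, fewer cells of a type and less RNA per cell cannot be told apart. TRAP and input also differ both in the cells sampled and in the ribosome binding of the RNA, which cannot be told apart either.

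Most proteasome genes were higher on ribosomes of DA neurons than in whole midbrain. Levels are given in arbitrary expression units, and 45 of the 49 genes reached 50 units, taken as background, on both arrays of at least 1 fraction. Among these 45 genes, 17 rose in TRAP and 1 fell at an adjusted p under 0.05 (limma, 2-sided, adjusted over 45037 probe sets), and 27 passed in neither direction. Rises thus made up 37.8% of the genes counted, beside 18.7% of all 10014 genes above background, and falls were 1 gene beside 6.87% of all genes. Both TRAP arrays lay above both input arrays for 40 of the 45 genes and below them for 1, where 52.3% and 23.6% of all genes did so. The log2 fold change was positive for 43 genes and negative for 2. Its median was 1.13, beside 0.44 over all genes above background, a difference of 0.69. At an unadjusted p under 0.05 (limma) the counts were 21 and 1, with no share of all genes at hand to set beside them.

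**Figure D1:**
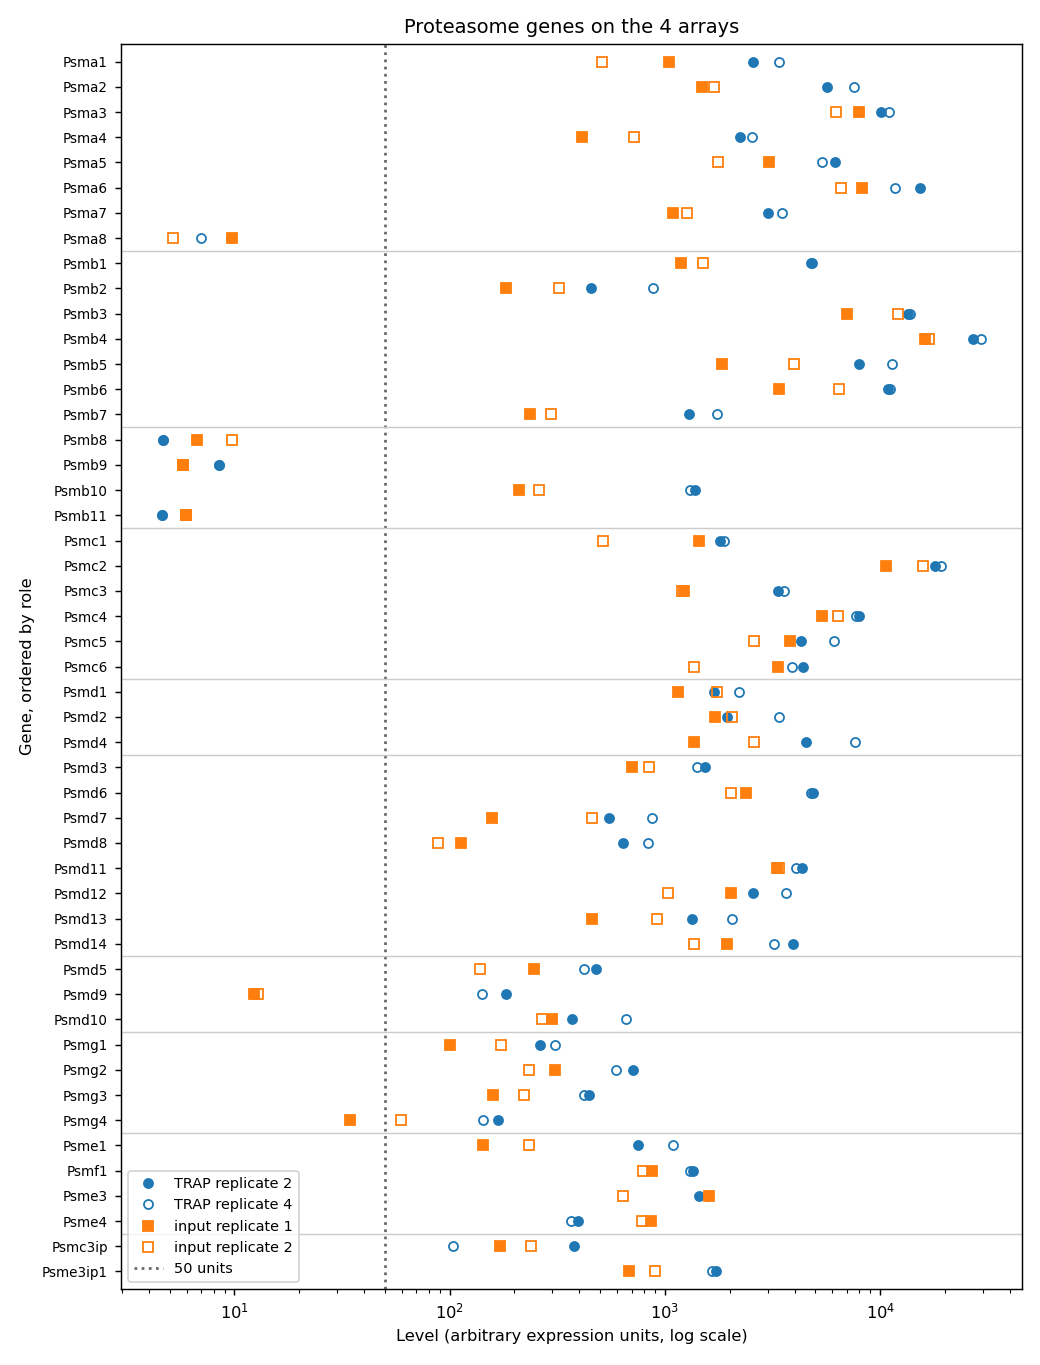
Level of each of the 49 genes on the 4 arrays, in arbitrary expression units on a log axis, with genes grouped by role and the background of 50 units as a dotted line. Circles (TRAP) lie to the right of squares (input) for 40 of the 45 genes above background, and Psma8, Psmb8, Psmb9 and Psmb11 lie under 50 units on all arrays.

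The shift of all genes depends on how the fractions are scaled, and the excess of the proteasome genes over it changed little. After quantile normalization of the 4 arrays the median of the 45 genes was 0.72 and that of all genes 0.04, and after centring they were 0.72 and 0.03. Positive values then numbered 39 and 42 of 45, and negative ones 6 and 3. Fewer genes passed with any array omitted: without TRAP replicate 2 or TRAP replicate 4, 2 genes rose (Psmc3 and Psmd9) and 0 fell, while without input replicate 1 the counts were 9 and 0 and without input replicate 2 they were 11 and 1. Over all genes, 7.78%, 7.38%, 15.4% and 13.9% rose under these omissions. Without either TRAP array the share of rises was thus lower among the 45 genes than over all genes. Each omission leaves 1 array in a fraction, which is assumed to vary like the pair of the other fraction. The part of this smaller design in the lost calls was not tested. The median of the 45 genes stayed between 1.06 and 1.18. The rises without input replicate 1 included Psmb6, Psmc1 and Psmg3, which did not pass on all 4 arrays. Those without input replicate 2 included Psmb3, Psmb6, Psmc4 and Psmg3, which also did not pass on all 4 arrays. Psmc3 was the only member whose call was kept whichever array was omitted. After quantile normalization 9 of the 45 genes rose, beside 12.2% of all genes. With values under 50 units raised to 50 the counts were 2 and 0, and the share of rises (4.44% of all genes) was then no higher among the proteasome genes. Leaving probe sets under background out of the fit ended the calls of Psmb4, Psmd11 and Psmf1, while other members passed, and the counts were 18 and 1.

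**Figure D2:**
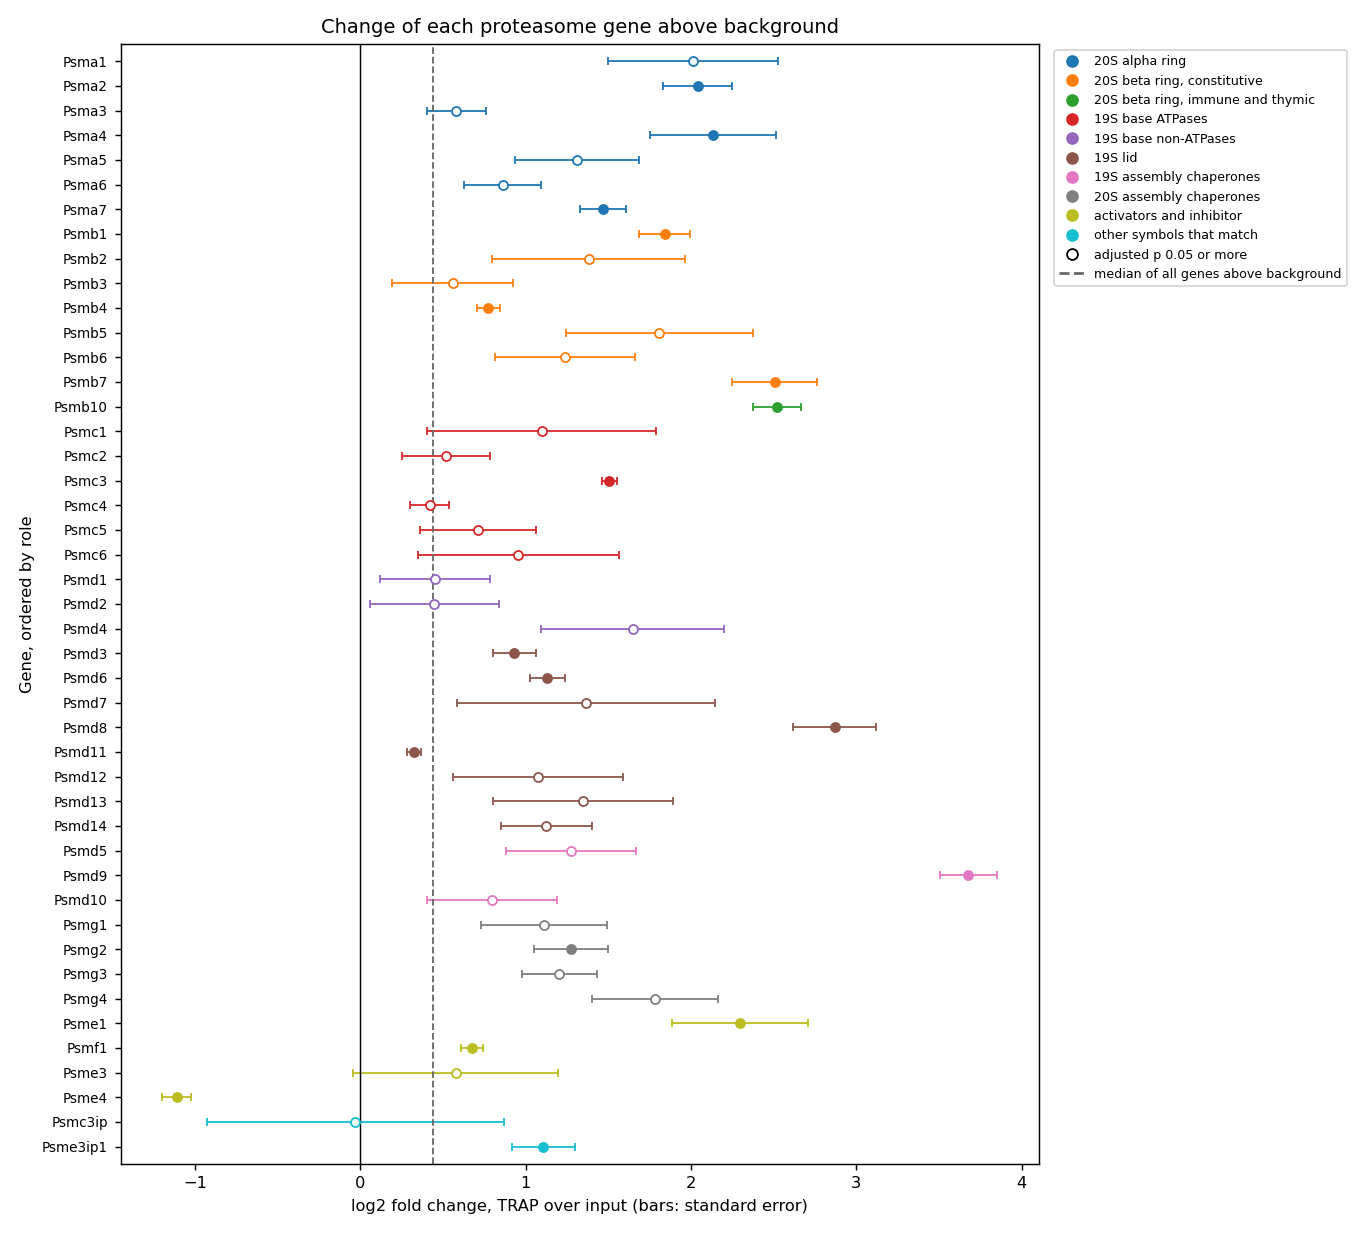
Log2 fold change of TRAP over input with its standard error for the 45 genes above background, coloured by role. Filled points passed at an adjusted p under 0.05, the dashed line is the median of all genes above background (0.44), and Psme4 is the only filled point left of 0.

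Of the 8 genes of the alpha ring of the 20S core, 7 were above background. All 7 had both TRAP arrays above both input arrays, as did 52.3% of all genes. Among them 3 rose (42.9%, beside 18.7% of all genes) and 0 fell, with a median log2 fold change of 1.47 and a range from 0.58 to 2.13. Psma2 gave 5645 and 7525 units in TRAP and 1488 and 1687 in input, a log2 fold change of 2.04 (SE 0.21, adjusted p = 0.0182). Psma4 read 2228 and 2534 units against 411 and 715, a change of 2.13 (SE 0.38, adjusted p = 0.0485). Psma7 was at 3012 and 3509 units in TRAP and at 1095 and 1259 in input, a change of 1.47 (SE 0.14, adjusted p = 0.0155). In all 3 genes the lower TRAP array was over the higher input array by more than either fraction's own spread. Psma1 changed by nearly as much (2558 and 3382 units against 1043 and 510) but its input arrays differed, and it did not pass (log2 fold change 2.01, adjusted p = 0.0852). Psma3, Psma5 and Psma6 gave 0.58, 1.31 and 0.86 without passing. The remaining gene, the testis subunit Psma8, read between 5.18 and 9.70 units on the 4 arrays. Each of the 3 calls was lost without either TRAP array or without input replicate 1 (adjusted p up to 0.212), those of Psma2 and Psma7 also without input replicate 2, and that of Psma4 after quantile normalization.

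All 7 constitutive beta subunits had both TRAP arrays above both input arrays, as did 52.3% of all genes. Of the 7, 3 rose (42.9%, beside 18.7% of all genes), and their median log2 fold change was 1.38 over all 7 (range 0.56 to 2.51). Among the catalytic subunits, Psmb7, which carries the trypsin-like site, read 1287 and 1749 units in TRAP and 235 and 297 in input, a 5.68-fold rise (log2 fold change 2.51, SE 0.26, adjusted p = 0.0182). Psmb5, the chymotrypsin-like subunit, gave 7986 and 11311 units against 1849 and 3981, a log2 fold change of 1.81 (SE 0.56) that did not pass (adjusted p = 0.105). Psmb6, the caspase-like subunit, gave 10868 and 11141 units against 3404.5 and 6410.5, and did not pass either (1.24, SE 0.42, adjusted p = 0.122). In both genes the input arrays lay further apart on the log2 scale than the TRAP arrays, and Psmb6 passed when either input array was omitted (log2 fold change 0.78 and 1.69), a fit in which only the TRAP arrays supply the spread. The structural subunit Psmb1 rose from 1191 and 1502 units to 4749 and 4831 (log2 fold change 1.84, SE 0.16, adjusted p = 0.0127). Psmb4 was the brightest, with 27024 and 29527 units in TRAP and 16131 and 16911 in input, and rose by a smaller step (0.77, SE 0.07, adjusted p = 0.0133). Psmb2 and Psmb3 gave 1.38 and 0.56. The calls of Psmb1, Psmb4 and Psmb7 were lost without either TRAP array, and those of Psmb4 and Psmb7 without either input array too (adjusted p up to 0.123). Psmb4 also did not pass after quantile normalization, where its log2 fold change was 0.32, and Psmb1 did not pass with its probe sets averaged, which gave 0.80.

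Replicates of a fraction also differed in a common order for some groups of subunits and not for others. All 7 constitutive beta genes were lower on input replicate 1 than on input replicate 2, with a median difference of 0.79 on the log2 scale, and all 7 were lower on TRAP replicate 2 than on TRAP replicate 4. The 3 non-ATPase genes of the 19S base showed the same order on both pairs of arrays, with a median difference of 0.60 between the input arrays, whereas 4 of 7 alpha genes were higher on input replicate 1. In the lid, 4 of 8 genes were higher on input replicate 1 and 4 of 8 on TRAP replicate 4. Over the 45 genes, 18 were higher on input replicate 1, beside 4886 of all 10014 genes above background. On TRAP replicate 4, 27 of the 45 were higher, beside 4907 of the 10014.

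The immune and thymic beta subunits split. Psmb10, the inducible counterpart of Psmb7, read 1378 and 1306 units in TRAP and 210 and 260 in input, a 5.74-fold rise (log2 fold change 2.52, SE 0.15, adjusted p = 0.00624). Its TRAP arrays were nearly equal and far above both input arrays. Psmb8, the inducible counterpart of Psmb5, was under background on every array, with 4.65 units on both TRAP arrays and 6.71 and 9.72 in input. Psmb9, the inducible counterpart of Psmb6, read 8.46 units on both TRAP arrays and 5.75 on both input arrays. The thymic subunit Psmb11 read 4.59 and 5.97 units in the same way. Values that are identical within a fraction at this level are at the floor of the normalization, so that a p from limma carries no information there. The call of Psmb10 was lost without either TRAP array (adjusted p up to 0.0832) and held in every other alternative run. Microglia, immune cells that can express the inducible subunits, had 6 of 12 measured markers above background, whose summed levels were 3727 and 1686 units in TRAP and 5386 and 9854 in input, and P2ry12 and Trem2 were at the floor. Their part in the difference of Psmb10 was not tested.

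Genes of antigen processing and the interferon response, with which the inducible subunits are often expressed, were listed beside Psmb10. Of 15 measured genes 7 were above background (10014 of 18193 over all genes), 1 rose and 1 fell, beside 18.7% and 6.87% of all genes, and the median log2 fold change was 1.39. Irf9, an interferon-activated transcription factor, rose from 26.7 and 28.8 units to 65.1 and 67.9, at least 1.33-fold against background. Its input arrays were under background, so that it was counted through TRAP alone. The adjusted p of 0.00406 (limma) is that of the fit to these input values. Ifit3, an interferon-induced gene, fell from 78.9 and 86.9 units to 49.7 on both TRAP arrays, at least 1.66-fold. That TRAP value is just under background and identical on both arrays, so that Ifit3 was counted through input alone.

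In the base of the 19S particle, which holds the ATPase ring, 1 of 9 genes rose (11.1%, beside 18.7% of all genes) and 0 fell. The 6 ATPases were all positive (median log2 fold change 0.83, range 0.42 to 1.51). The gene that rose, Psmc3, was at 3344 and 3556 units in TRAP and at 1231 and 1198.5 in input, a 2.84-fold rise (log2 fold change 1.51, SE 0.04, adjusted p = 0.00167). The arrays of each fraction lay close together and far from those of the other. Psmc4 read 7947 and 7733 units against 5368 and 6393 and did not pass (0.42, SE 0.12, adjusted p = 0.0886). Psmc1, Psmc2, Psmc5 and Psmc6 gave 1.10, 0.52, 0.71 and 0.95 without passing. Of the non-ATPase subunits of the base, none passed: the scaffold subunit Psmd1 gave 1686 and 2211 units in TRAP and 1147 and 1739 in input (0.45, adjusted p = 0.344), and its partner Psmd2 gave 1933 and 3372 units against 1709 and 2050.5 (0.45, adjusted p = 0.409). The fractions overlapped in both. Psmd4, a receptor for ubiquitin chains, read 4520 and 7634.5 units against 1362 and 2586 (1.65, adjusted p = 0.119). After quantile normalization Psmc4, Psmd1 and Psmd2 turned to -0.13, -0.07 and -0.07. Over the 9 base genes the median was 0.71, beside 1.42 over the 14 constitutive core genes above background, a difference that was not tested. Both medians rest on the brightest probe set of each gene. The other base probe sets above background gave larger changes, 1.31 in Psmc2, 1.44 and 2.28 in Psmc6 and 2.36 in Psmd4. That of Psmc4 gave 1.55 (limma adjusted p = 0.0368). The other core probe sets above background also gave larger changes, apart from dimmer ones of Psma6 that were lower in TRAP.

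In the lid, which removes ubiquitin chains from substrates, 4 of 8 genes rose (50%, beside 18.7% of all genes) and 0 fell. The median log2 fold change was 1.13 (range 0.33 to 2.87). Psmd8 had the largest change, from 113 and 88.2 units in input to 636 and 839 in TRAP, a 7.30-fold rise (2.87, SE 0.25, adjusted p = 0.0134). Psmd6 rose from 2373 and 2025 units to 4855 and 4751 (1.13, SE 0.11, adjusted p = 0.0156). Psmd3 went from 706 and 843 units to 1535 and 1412 (0.93, SE 0.13, adjusted p = 0.0321). The smallest call was Psmd11, at 4311 and 4063 units in TRAP and 3304 and 3375 in input (0.33, SE 0.04, adjusted p = 0.0276). That value is under the median of all genes, and after quantile normalization or centring it turned to -0.20 and -0.08. The other probe sets of Psmd11 above background gave 1.36, 0.42 and 0.003 and did not pass. Psmd14, the deubiquitinase of the lid, gave 1.12 and did not pass (adjusted p = 0.0826), nor did Psmd7, Psmd12 and Psmd13 (1.36, 1.08 and 1.35). All 4 calls were lost without either TRAP array, all but that of Psmd6 without either input array too (adjusted p up to 0.158), and that of Psmd3 also after either rescaling.

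All 7 genes of assembly chaperones had both TRAP arrays above both input arrays, as did 52.3% of all genes. Of the 7, 2 rose, beside 18.7% of all genes. Psmd9, a chaperone of the base ATPases, gave 183 and 142 units in TRAP and 12.4 and 12.8 in input. Its input arrays were under background, so that it was counted through TRAP alone, and the rise was at least 3.22-fold against 50 units. The adjusted p of 0.00407 is that of the fit to the input values under background, and with these raised to 50 it was 0.0847. With Psmd9 at that bound the median over the 45 genes stays the same. Without either input array it did not pass either (adjusted p up to 0.0518). The other probe sets of Psmd9 were under background on every array, with lower values in TRAP. They read 11.25 and 12.7 units against 16.1 and 18.3, and 4.58 against 9.45. The other base chaperones, Psmd5 and Psmd10, gave 1.28 and 0.80 and did not pass. Of the 4 core chaperones, whose log2 fold changes lay between 1.11 and 1.78, 1 rose: Psmg2 read 709 and 590 units in TRAP and 308 and 233 in input (1.27, SE 0.22, adjusted p = 0.0474). Psmg4 read 168 and 142 units against 34.4 and 59.2 (1.78, adjusted p = 0.0660), with an input array on each side of background, and Psmg1 and Psmg3 gave 1.11 and 1.20. The call of Psmg2 was lost whichever array was omitted (adjusted p up to 0.189) and after quantile normalization.

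Alternative activators differed in direction. Psme1, a subunit of the interferon-inducible PA28 ring, rose from 143.5 and 235 units to 751 and 1085, a 4.92-fold rise (log2 fold change 2.30, SE 0.41, adjusted p = 0.0487). Psme4, which encodes the nuclear activator PA200, was the only member that fell, with 395 and 366 units in TRAP and 865.5 and 778 in input, 2.16-fold lower (-1.11, SE 0.09, adjusted p = 0.0111). Both TRAP arrays were under both input arrays, and its other probe set above background gave -1.31 (79.8 and 106 units against 272 and 189, adjusted p = 0.0772). Psme3, the nuclear PA28 subunit, gave 1446 and 1582 units against 1609 and 640 with overlapping fractions (0.58, SE 0.62, adjusted p = 0.487), and without input replicate 2 it turned to -0.09. The inhibitor Psmf1 rose from 874 and 793 units to 1353 and 1306 (0.67, SE 0.07, adjusted p = 0.0179), but not after quantile normalization or centring, where the log2 fold changes were 0.21 and 0.27. Its other probe sets above background gave larger changes, of 1.05, 1.92 and 1.96. Psme1, Psme4 and Psmf1 each lost the call without either TRAP array, Psme1 and Psme4 also without input replicate 1, and Psme1 without input replicate 2 and after quantile normalization as well (adjusted p up to 0.191).

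The other 2 genes with a matching symbol are not part of the particle. Psme3ip1, which encodes a binding partner of the Psme3 protein, rose from 678 and 901 units to 1720 and 1649 (1.11, SE 0.19, adjusted p = 0.0466), and lost the call without either TRAP array (adjusted p up to 0.202) and after quantile normalization. Psmc3ip, a gene of meiotic recombination, read 378 and 103 units in TRAP and 171 and 238 in input (-0.03, adjusted p = 0.979), and its fractions overlapped. Without both genes, 16 of 43 rose and 1 fell, with a median of 1.20.

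Several genes had further probe sets, and these mostly gave larger differences than the brightest one. In 16 genes at least 2 probe sets were above background, and in all 16 the second brightest had the same sign as the brightest, beside 78.8% of 3711 genes with such a pair. It gave the larger log2 fold change in 12 of the 16 (75.0%, beside 60.6% of all such genes), and the median of second minus brightest was 0.57, beside 0.22. Psma5 went from 1.31 to 2.23 (adjusted p = 0.0478), Psmc4 from 0.42 to 1.55 (adjusted p = 0.0368), and Psmb4 from 0.77 to 1.42 (adjusted p = 0.0118). In Psma6 the second probe set gave 2.10 (adjusted p = 0.0222) and 2 dimmer ones were lower in TRAP, going from 94.9 and 81.1 units and from 145 and 115 units in input to values under background in TRAP, at least 1.755-fold and 2.58-fold lower. The first reads the same floor value on both TRAP arrays. Both passed as lower in limma (adjusted p = 0.00118 and 0.00497), in fits to TRAP values under background. Among the 45 brightest probe sets, 5 had a name that marks probes shared between transcripts (s_at) and 3 a name that marks probes identical to others (x_at). Psmd11, Psmf1 and Psme4 are of the first kind and Psmb4 is of the second, so that the signal of related transcripts cannot be separated there. Without such probe sets 17 genes rose and 0 fell, and the median was 1.31.

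**Figure D3:**
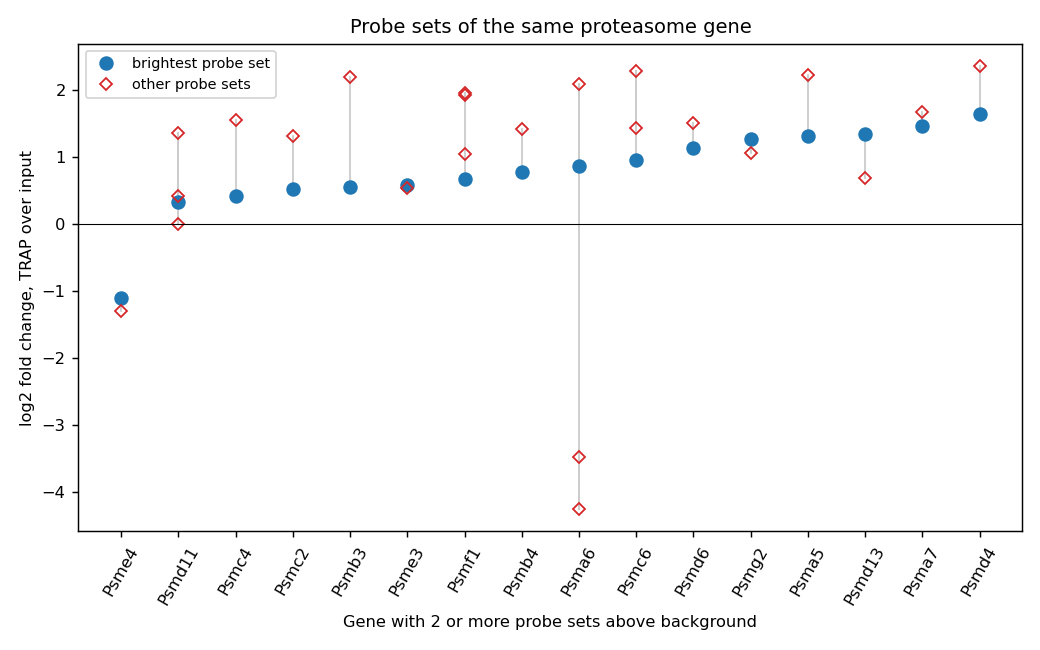
Difference between TRAP and input (log2 fold change) of each probe set above background in the 16 genes that have at least 2, with the brightest as filled circles and the others as open diamonds. Most diamonds lie above their circle, and 2 probe sets of Psma6 lie far below it.

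Promoter sequences were available for 41 of the 49 genes, as 250 bases before and 50 bases after the transcription start (RefSeq, GRCm38.p6). The antioxidant response element is bound by Nfe2l1 and Nfe2l2, and Nfe2l1 is known to raise the transcription of proteasome genes when the particle is inhibited. Its core, searched as TGACNNNGC on both strands, was in 6 of the 41 (14.6%), beside 14.0% of 27025 genes. The 6 were Psmb5, Psmb6, Psmc6, Psmd9, Psmd12 and Psme4, a set that holds Psmd9 and also the only gene that fell. CCAAT was in 16 (39.0%, beside 41.1%), and GAAANNGAA, from the interferon-stimulated response element, was in 7 (17.1%, beside 9.76%), among them Psmd9 and Psme1 but not Psmb10. None of these matches is evidence of a binding site. Promoters of Psmd9, which rose, of Psme4, which fell, and of the catalytic subunit Psmb5, which did not pass, are shown because all 3 hold the core. They are printed 5′ to 3′ on the gene's strand, with the match in capitals (in Psme4 it lies on the opposite strand). They are Psmd9 at chr5:123227940-123228239, plus strand, Psme4 at chr11:30771525-30771824, plus strand, and Psmb5 at chr14:54617946-54618245, minus strand.
Psmd9: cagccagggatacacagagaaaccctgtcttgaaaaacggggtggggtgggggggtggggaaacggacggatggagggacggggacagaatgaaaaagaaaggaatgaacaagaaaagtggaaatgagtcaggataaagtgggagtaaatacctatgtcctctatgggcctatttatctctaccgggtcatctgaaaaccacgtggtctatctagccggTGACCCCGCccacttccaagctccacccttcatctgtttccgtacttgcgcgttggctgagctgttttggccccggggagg
Psme4: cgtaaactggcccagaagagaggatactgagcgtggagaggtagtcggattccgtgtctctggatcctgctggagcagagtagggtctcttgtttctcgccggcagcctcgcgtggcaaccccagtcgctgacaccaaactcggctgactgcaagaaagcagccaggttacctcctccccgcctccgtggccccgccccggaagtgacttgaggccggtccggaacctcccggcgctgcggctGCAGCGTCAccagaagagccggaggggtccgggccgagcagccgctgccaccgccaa
Psmb5: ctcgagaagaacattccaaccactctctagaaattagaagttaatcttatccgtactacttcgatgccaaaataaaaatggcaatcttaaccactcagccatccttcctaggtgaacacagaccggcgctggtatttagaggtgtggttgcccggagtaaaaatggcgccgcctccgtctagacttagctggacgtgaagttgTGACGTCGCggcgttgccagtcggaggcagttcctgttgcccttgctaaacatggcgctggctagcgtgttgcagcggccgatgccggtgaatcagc
The matches start 31, 7 and 47 bases before the transcription start.

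Genes that work with the proteasome but carry other symbols gave 3 calls. Of 37 such genes listed (particle partners and genes of ubiquitin supply and shuttling), 27 had a probe set with a single symbol, and the others were not measured here. Of the 27, 26 were above background, and their median log2 fold change was 0.93. Among these 3 rose and 0 fell (11.5% higher, beside 18.7% of all genes, of which 6.87% fell). At an unadjusted p under 0.05 with limma also 0 were lower, with no share of all genes at hand. Pomp, the maturation factor of the core, rose from 1179 and 1193 units to 4381 and 5525 (2.05, adjusted p = 0.0103). Sem1, a small lid subunit, rose from 2746 and 2376 units to 6534 and 5658 (1.25, adjusted p = 0.0203). Ufd1, which brings ubiquitinated proteins to the segregase Vcp, rose from 929 and 772 units to 1959 and 1674 (1.10, adjusted p = 0.0352). The transcription factor Nfe2l1 gave 0.30 and did not pass (adjusted p = 0.415). Without TRAP replicate 4 the count was 1.

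Other complexes present in every cell were set beside the proteasome. The 8 subunits of the chaperonin CCT, which folds actin and tubulin, had TRAP above input in all 8, as did 52.3% of all genes. They gave 0 calls, with a median log2 fold change of 0.91. The 9 V1 subunits of the V-ATPase, the proton pump of lysosomes and synaptic vesicles, gave 3 rises (33.3%, beside 18.7% of all genes). Their median was 1.11, close to the 1.13 of the proteasome genes. The 11 pan-neuronal markers gave a median of 0.85 with no call, and the 11 DA neuron markers 4.89 with 11 rises. No difference between these lists was tested.

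**Figure D4:**
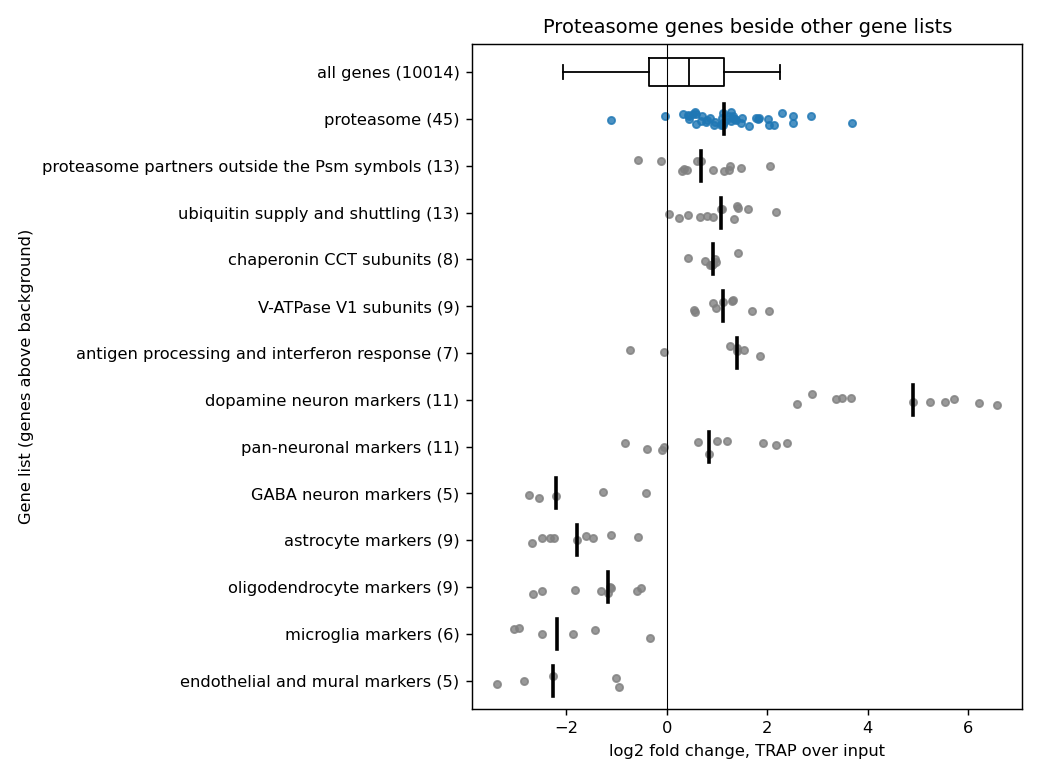
Difference between TRAP and input (log2 fold change) of the genes above background in each list, with the median as a black bar and the number of genes in brackets. All genes are a box (median and quartiles, whiskers from the 5th to the 95th percentile), and the proteasome genes (median 1.13) lie beside the chaperonin and V-ATPase lists, far below the DA neuron markers and above the glial and vascular markers.

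Lists of markers of the other cells of the midbrain had negative medians. Falls numbered 2 in astrocytes, 0 in oligodendrocytes and 1 in each of the other lists, where 6.87% of all genes fell. Medians of the log2 fold change were -1.79 for astrocytes (9 of 10 measured genes above background), -1.17 for oligodendrocytes (9 of 9), -2.17 for microglia (6 of 12), -2.25 for endothelial and mural cells (5 of 9) and -2.20 for GABA neurons (5 of 5). They were not at the same level on both TRAP arrays, since replicate 2 exceeded replicate 4 by a median of 1.46 for oligodendrocytes, 1.06 for microglia and 0.81 for astrocytes, whereas the proteasome genes differed by -0.09. The gap between 3′ and 5′ control probe sets of Gapdh on the log2 scale was 4.96 and 3.52 in TRAP and 6.81 and 6.39 in input, and that of Actb was 6.45 and 4.82 against 7.30 and 7.08. The part of RNA quality and of cell composition in the differences above was not tested.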

How the data were processed

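Pools of mouse midbrain RNA were hybridized to Affymetrix 430 2.0 arrays after amplification with a two-cycle kit. The authors used GCRMA (version not given in the sources used here) for normalization, and deposited log2 values, 1 per probe set and array. The value distributions of a fraction's arrays are almost equal (mean quantile distance 0.0239 in TRAP and 0.0298 in input, log2) and those of the fractions differ (0.22 to 0.257), so the fractions may have been normalized apart and every fold change depends on this scaling. Arrays carry no read depth, and their number (2 per fraction) limits the precision. Levels in units are 2 raised to these values. The difference between TRAP and input was fitted in limma 3.58.1 (R 4.3.3), with Benjamini-Hochberg adjustment over 45037 probe sets (64 Affymetrix controls left out) and a threshold of 0.05. Genes were counted where both arrays of at least 1 fraction reached 50 units. Where both arrays of 1 fraction were under it, the fold was computed against 50 units. Members, lists and named genes (every call, the largest and smallest changes, catalytic subunits and activators) were chosen with earlier results of these data known. No column held a sample of another series. The labels describe replicates as pools, input was collected in parallel with TRAP, and whether the arrays numbered 2 in both fractions share a pool is not given, so p-values measure only the spread between these arrays. The script was tested on simulated arrays, where it recovered the sizes of the changes put in but called a minority of them. Alternatives were other scalings, filters, variance priors and probe set rules, and each array left out in turn. Symbols came from the platform's annotation, which can be old, and promoter sequences from RefSeq (GRCm38.p6).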

Additional observations from a re-analysis of the deposited data

Results flagged for a closer look

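The probe set annotated to both Psme2b and Psme2 was outside the rule because it carries several symbols, so that Psme2, the partner of Psme1 in the PA28 ring, was not counted. It read 545 and 777 units in TRAP and 217 and 245.5 in input, a log2 fold change of 1.49 (SE 0.25, limma adjusted p = 0.0436). Both TRAP arrays were above both input arrays, and the 2 genes cannot be separated by this probe set.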

How the results depend on the processing

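The count of rises, 17, was 9 after quantile normalization and 2 (Psmb10 and Psmc3) with values under 50 units raised to 50, and with 1 array left out it ranged from 2 to 11, including genes that did not pass on all arrays (Psmb6 and Psmg3 without either input array). The single fall became 0 with values raised, 0 without s_at and x_at probe sets (an alternative chosen after seeing the data), and 2 (Psma3 and Psma6) with all probe sets of each gene averaged, and ranged from 0 to 1 with 1 array left out. Averaging left 39 genes counted, of which 15 rose, and Psme4 was not among its calls. The averages of Psma3 and Psma6 include dimmer probe sets under background in TRAP, while their brightest probe sets gave 0.58 and 0.86. Rises numbered 17 after centring, beside 21.4% of all genes, but 3 of the main calls were lost there and other members passed. They numbered 18 with only probe sets above background in the fit and 20 with an intensity trend in the prior. No share of all genes is given for these settings or for averaging. The median log2 fold change, 1.13, was 0.72 after quantile normalization, 0.72 after centring and 1.31 without s_at and x_at probe sets. The 3 rises among partner and ubiquitin genes became 1 after quantile normalization, 0 with values raised, 5 with an intensity trend in the prior and 7 with probe sets averaged, and ranged from 1 to 4 with 1 array left out. Directions turned after quantile normalization for Psmc4 (-0.13), Psmd1 (-0.065), Psmd2 (-0.072) and Psmd11 (-0.20), after centring for Psmd11 (-0.084). Psme3 ranged from -0.089 without input replicate 2 to 1.24 without input replicate 1. Psmc3ip turned to 0.37 with probe sets averaged and to 0.21 without input replicate 2, and ranged from -0.97 without TRAP replicate 2 to 0.91 without TRAP replicate 4. Raising values changes the level of Psmd9 alone among the called genes, and the cause of the other changes was not tested. No paired analysis was possible because the fractions share only 1 replicate number. With 2 arrays a fraction, small differences between genes were not resolved.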
